A study of Equus caballus with 3 samples.

Results

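Genes of the cartilage and tendon lineages were examined in equine multipotent mesenchymal stromal cells (MSCs) isolated from fat (adipose tissue, AT), from marrow of bone (BM) and from the circulation (peripheral blood, PB). The 8 genes were chosen by name: *SOX9*, *ACAN*, *COMP*, *PRG4*, *SCX*, *MKX*, *TNMD* and *TNC*. All 8 had a row in each of the 3 deposited count matrices, which shared 29850 gene rows. Of these genes, 7 had a unique molecular identifier (UMI) in at least 3 kept cells of a source and entered the comparisons, whereas *TNMD* had none. In the deposited matrices, which use EquCab3.0, *SOX9* lies on chromosome 11, *ACAN* on 1, *COMP* on 21, *PRG4* on 5, *SCX* on 9, *MKX* on 29, *TNMD* on X and *TNC* on 25.

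Cartilage and tendon both arise from mesenchymal progenitors, and their lineages are set by different transcription factors. SOX9 is required for chondrocyte formation and switches on cartilage matrix genes, among them *ACAN*, which encodes the proteoglycan that holds water in cartilage. SCX and MKX direct tendon development, and *TNMD* encodes a membrane protein of mature tendon cells. Horses are often treated with MSCs for tendon and joint injury, which is why the baseline level of such genes in cultured cells is of interest.

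The cells came from 1 warmblood mare, 10 years old, so that the sources were matched for donor. No agent or genetic change was applied, and all 3 cultures were captured undifferentiated after their second passage by droplet-based scRNA-seq of transcript 3' ends. Each source was sequenced as 1 library, and a difference between sources therefore cannot be told apart from a difference between cultures or libraries. The sources follow the sample titles and the paper, although another label of all 3 samples names mononuclear cells of blood. No test was run across cells, and every 95% interval (exact Poisson for sums of UMIs, exact conditional for ratios, Clopper-Pearson for shares of cells) covers counting error only.

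After filtering, 5403 AT-, 5580 BM- and 5318 PB-derived cells remained, with 39980656, 40239295 and 41622445 UMIs in total. Markers of stromal cells were abundant in all sources (10 of 10 listed genes measured, summing to 15876, 11950 and 18598 UMIs of a gene per 1e6 UMIs, CPM). The 12 leukocyte genes summed to 13.8, 52.6 and 8.41 CPM in AT, BM and PB, most of it *S100A12* and *CD68* (41.2 and 11.034 CPM in BM), while the defining gene *PTPRC* had no UMI in any source. The 7 measured of 8 endothelial genes summed to 1.35, 0.273 and 0.264 CPM, with *KDR* at 0 in all sources. Barcodes were shared between libraries. All 5318 kept PB barcodes were also present in the AT library, mainly among its barcodes under 2500 UMIs, and 74 kept AT barcodes were present in the PB library. Without these 74, the level of *TNC* in AT was 4.96 CPM in place of 5.18 CPM, and the levels of the other genes moved by less.

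*TNC* and *SOX9* were higher in both BM- and PB-derived than in AT-derived MSCs, whereas *PRG4* and *MKX* were higher in AT. *SCX* was highest in BM with equal levels in AT and PB, *ACAN* had nearly all of its UMIs in PB, *COMP* had few UMIs in any source and *TNMD* none. A difference of log2(CPM + 1) of at least 1, referred to as 2-fold below, was found for 4 of 7 genes between AT and BM, 2 higher in BM and 2 in AT. Among all 16457 genes compared, 8.39% passed the same limit, 6.33% higher in BM and 2.06% in AT. Between AT and PB, 4 of 7 genes passed, 2 higher in PB and 2 in AT, against 7.96% of all genes (4.43% higher in PB, 3.53% in AT). Between BM and PB, 1 of 7 passed, higher in PB, against 6.3% of all genes (1.77% higher in PB, 4.53% in BM).

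Genes with at least 5 CPM in the higher source passed more often. For AT and BM these were 3 of 3 of the chosen genes, 2 higher in BM and 1 in AT, and 11.3% of all such genes (8.7% and 2.56%). For AT and PB 3 of 3 passed, 2 higher in PB and 1 in AT, against 10.5% (6.14% and 4.32%). For BM and PB 1 of 2 passed, higher in PB, against 8.48% (2.34% higher in PB, 6.14% in BM). The median difference over the 7 genes was -0.04 from AT to BM, 0.0003 from AT to PB and -0.001 from BM to PB. Over all genes it was 0.14 from AT to BM, 0.02 from AT to PB and -0.13 from BM to PB. The differences given here were not corrected for these shifts. The 8 genes were selected with earlier results of these data known, so that these counts describe them and carry no weight beyond that.

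**Figure D1:**
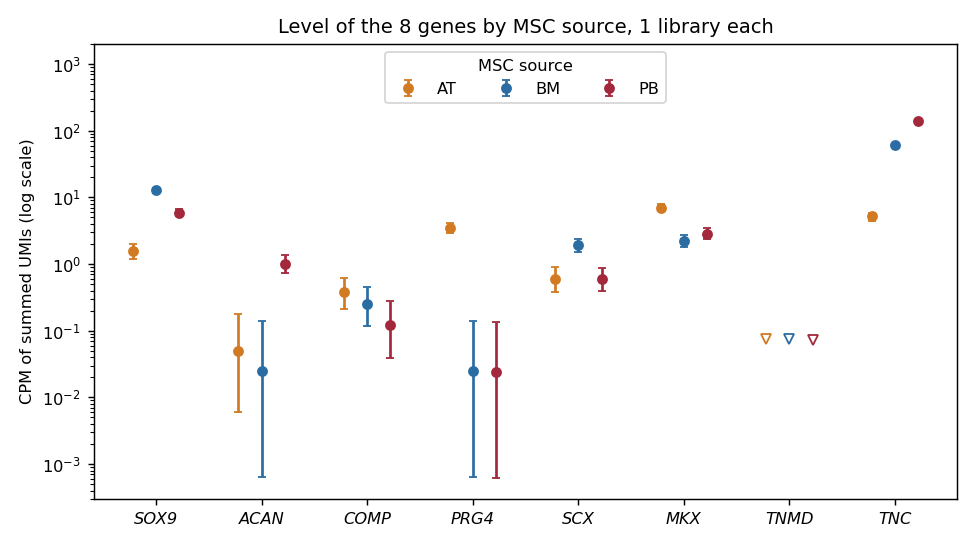
CPM of summed UMIs (log scale) of each gene in kept AT-, BM- and PB-derived MSCs, 1 library each; bars are 95% Poisson intervals and open triangles mark 3 UMIs for genes without a UMI. *TNC* runs from 5.18 CPM in AT to 139 CPM in PB, while *PRG4* and *MKX* are highest in AT; levels should be compared within a gene.

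*TNC* encodes tenascin-C, a matrix glycoprotein of developing tendon and of tissue under repair. AT had 207 UMIs (5.18 CPM, 95% interval 4.50 to 5.93), BM 2470 (61.4 CPM, 59.0 to 63.9) and PB 5786 (139 CPM, 135 to 143). The 3 intervals were separate. The level in BM was 11.9-fold (10.3 to 13.7) and that in PB 26.8-fold (23.4 to 31.0) the level in AT. PB exceeded BM 2.26-fold (2.16 to 2.37). With all barcodes of at least 500 UMIs, which adds AT barcodes also found in the PB library, the levels were 17.5, 58.6 and 140.2 CPM and the differences of log2(CPM + 1) from AT were 1.69 for BM and 2.93 for PB, in place of 3.34 and 4.50. Cells with a *TNC* UMI made up 3.29%, 30.5% and 56.1% of AT-, BM- and PB-derived MSCs. With every cell thinned to 2500 UMIs, the difference between PB and BM was 0.95 on the log2(CPM + 1) scale and under the limit. *TNC* is on the list of PB genes that the study drew from these same libraries, so its direction is not independent evidence.

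The summed level of osteoblast genes had the same order of sources as that of *TNC*. The 7 measured of 8 listed osteoblast genes summed to 17.2 CPM in AT, 186 CPM in BM and 415 CPM in PB, and 5 of the 7 were over 2-fold higher in BM and in PB than in AT, beside 6.33% and 4.43% of all genes. Between BM and PB, 2 of the 7 were over 2-fold higher in PB and 1 in BM (1.77% and 4.53% of all genes), and 3 of the 7 had their highest level in BM. *IBSP*, which encodes bone sialoprotein, had no UMI in AT. Their part in the difference of *TNC* was not tested.

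*SOX9*, the transcription factor of chondrocyte commitment, had its highest level in BM. In AT 63 UMIs were counted (1.58 CPM, 1.21 to 2.02), in BM 512 (12.7 CPM, 11.6 to 13.9) and in PB 245 (5.89 CPM, 5.17 to 6.67). The intervals did not overlap between any pair of sources. BM was 8.07-fold (6.21 to 10.7) and PB 3.74-fold (2.82 to 5.01) above AT. The distance from AT was wider in G1 cells, with 0.960 CPM in AT, 15.4 CPM in BM and 6.24 CPM in PB. A single random thinning gave 0.814, 13.8 and 4.96 CPM. The mean of single-cell CPM, which like thinning gives each cell the same weight, was 1.605, 13.2 and 5.76 CPM. These means were close to the levels over all UMIs, so the lower thinned level in AT is not read further. BM was 2.16-fold (1.85 to 2.53) above PB in CPM, but on the log2(CPM + 1) scale the difference PB minus BM was -0.995 and just short of the limit. It passed the limit in 6 of the 13 settings run, with -1.31 after thinning and -1.18 in G1 cells. The gene was detected in 1.15%, 7.94% and 4.06% of cells from AT, BM and PB.

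SOX5 and SOX6 act together with SOX9 in chondrocytes. *SOX6* was without a UMI in AT and had 63 in BM (1.57 CPM) and 231 in PB (5.55 CPM), an order in which PB and not BM was highest. *SOX5* had 1, 7 and 0 UMIs. *COL2A1*, the main collagen gene of cartilage and a direct target of SOX9, had no UMI in any source, which at these totals allows up to 0.0750, 0.0746 and 0.0721 CPM in AT, BM and PB.

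Of the tendon transcription factors, *SCX* was highest in BM and *MKX* in AT. For *SCX*, AT had 24 UMIs (0.6003 CPM, 0.385 to 0.893), BM 77 (1.91 CPM, 1.51 to 2.39) and PB 25 (0.601 CPM, 0.389 to 0.887). The interval of BM lay above those of AT and PB, which were nearly identical. BM exceeded AT 3.19-fold (1.99 to 5.27) and PB 3.19-fold (2.01 to 5.22), although at so low a level the differences of log2(CPM + 1), 0.86 from AT to BM and -0.86 from BM to PB, were under the limit. Both passed it after thinning (1.02 and -1.31) and in G1 cells (1.06 and -1.09), but in no other setting (2 of 14 and 2 of 13 run). Thinning was a single random draw that left few *SCX* UMIs. With the mean of single-cell CPM the differences were 0.90 and -0.94. Only 0.426%, 1.34% and 0.470% of cells held a UMI of *SCX*.

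For *MKX*, AT had 281 UMIs (7.03 CPM, 6.23 to 7.90), BM 90 (2.24 CPM, 1.80 to 2.75) and PB 119 (2.86 CPM, 2.37 to 3.42). AT was above the other sources, whose intervals overlapped. The level in AT was 3.14-fold (2.47 to 4.03) that in BM and 2.46-fold (1.98 to 3.07) that in PB. The difference PB minus AT, -1.06 on the log2(CPM + 1) scale, was just past the limit. It was under the limit after thinning (-0.87), without an upper UMI limit (-0.93) and with all barcodes of at least 500 UMIs (-0.88). A pseudocount of 25 CPM also brought it under the limit (-0.20). *MKX* was detected in 4.72%, 1.51% and 2.16% of AT-, BM- and PB-derived cells.

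*TNMD* had 0 UMIs in kept cells of all sources. Taking 3 counts as the upper limit of a count of 0, a UMI is allowed in up to 0.0555% of cells from AT, 0.0538% from BM and 0.0564% from PB. This limits cells with a UMI, not cells that express the gene, and covers counting error only. Its cartilage relative *CNMD*, which encodes chondromodulin, was also near the limit of detection, with 0.0750, 0.0746 and 0.144 CPM.

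*PRG4*, which encodes lubricin, the lubricant of joint surfaces and gliding tendons, was seen almost entirely in AT. It had 141 UMIs in AT (3.53 CPM, 2.97 to 4.16) and 1 UMI each in BM and PB. The ratio of AT to BM was 142 (25.1 to 5644) and that of AT to PB 147 (25.9 to 5839), both with wide intervals because of the single UMI in the lower source. The UMIs were concentrated in few AT-derived cells. They lay in 88 cells (1.63%), whereas an even spread according to cell depth would have placed them in 2.57%. Up to 7 UMIs were found in 1 cell. The 54 cells with the most held 75.9% of the gene's UMIs, a share that is high for any rare gene. It was 87.3% for *SOX9* in AT, which was near an even spread (1.15% of cells, 1.16% if even).

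The 88 AT-derived cells with *PRG4* had a median of 7525.5 UMIs, against 7289 in the other 5315 cells. Of these cells 0 held a UMI of *SOX9* and 1 held *TNC*, against 62 and 177 of the 5315 others, and with so few UMIs the counts do not set the 88 cells apart. *IGFBP6*, a gene of the tendon sheath and paratenon that was named by role, reached 592 CPM (536 to 653) in them and 382 CPM (376 to 388) in the other AT-derived cells. In the 25 cells with at least 2 *PRG4* UMIs, *IGFBP6* reached 856 CPM (724 to 1005), while it was detected in 20 of the 25 and in 4249 of the 5315 cells without *PRG4*. *TPPP3*, a marker of tendon sheath progenitors, did not differ beyond counting error, with 4 UMIs or 5.84 CPM (1.59 to 14.9) in the 88 cells and 8.47 CPM (7.59 to 9.44) in the others, and had no UMI in the 25 cells. Of other tendon genes, *EGR1* was higher in the 88 cells, at 59.8 CPM (42.9 to 81.1) against 37.4 CPM. *COL12A1* was lower, at 52.5 CPM (36.8 to 72.7) against 83.5 CPM. *IGFBP5* was lower in the 88 cells, with 65.6 CPM (47.9 to 87.8) against 261 CPM (256 to 266) in the others. The smooth muscle markers summed to 1565 and 2475 CPM. *CD34* had 4 UMIs in 3 of the 88 cells, or 5.84 CPM (1.59 to 14.9), against 0.560 CPM (0.351 to 0.848). *IGF2* had 42.3 CPM (28.3 to 60.8), with 29 UMIs in 7 cells, against 17.6 CPM. *EGR1*, *COL12A1*, *IGFBP5*, *CD34* and *IGF2* were chosen here after their values were seen, and these cells share 1 library, so no test was made.

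*ACAN* and *COMP*, the matrix genes of cartilage and of load-bearing tendon, were low, with at most 1.01 CPM in a source. For *ACAN*, 2 UMIs came from AT, 1 from BM and 42 from PB (1.01 CPM, 0.727 to 1.36). PB exceeded AT 20.2-fold (5.25 to 172) and BM 40.6-fold (6.90 to 1641), but with a level of 1 CPM neither difference of log2(CPM + 1) reached the limit (0.94 and 0.97). The difference from BM passed it in 2 of the 13 settings run, with TMM factors and without BM cluster 3 (1.01 each). Each of the 42 UMIs lay in a different cell. *COMP* had 15, 10 and 5 UMIs in AT, BM and PB, or 0.375, 0.249 and 0.120 CPM. AT and BM did not differ beyond counting error (ratio 1.51, 0.634 to 3.76), and AT was 3.12-fold (1.08 to 10.98) above PB.

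Because deeper cells are more likely to show a rare transcript, every cell was also thinned to 2500 UMIs in a single random draw. The order of sources was kept for *TNC* (1.11%, 14.7% and 26.4% of cells in AT, BM and PB) and for *SOX9* (0.204%, 3.30% and 1.18%). *MKX* remained most frequent in AT with 1.74%, against 0.538% in BM and 0.846% in PB. *PRG4* was left in 0.888% of AT-derived cells. Median depths were 7291, 6874.5 and 7750 UMIs per cell. Within the cultures no cells known to be without these genes could be named, so a background share from free RNA was not available.

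**Figure D2:**
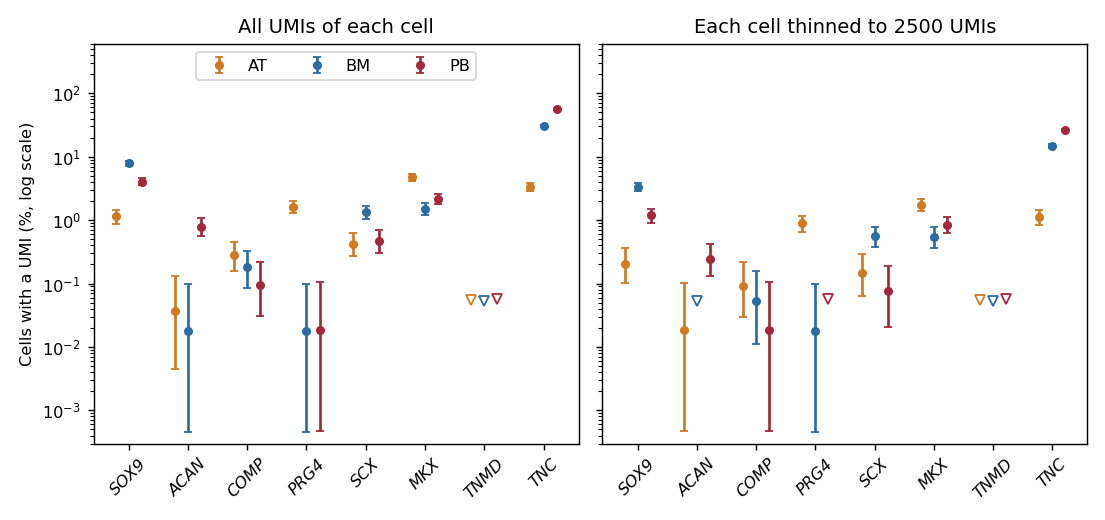
Share of kept cells with at least 1 UMI of each gene (%, log scale) with all UMIs (left) and with every cell thinned to 2500 UMIs (right); bars are Clopper-Pearson 95% intervals and open triangles mark the share that a count of 0 allows. Thinning lowers *TNC* in PB from 56.1% to 26.4% of cells, and PB stays above BM and AT.

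At least 1 of the 8 genes was detected in 11.2%, 37.5% and 58.7% of cells from AT, BM and PB, but 2 or more in 0.296%, 3.94% and 4.80%. With *TNC* left out, the shares with any gene were 8.09%, 10.8% and 7.24%. After thinning, *TNC* was found in 14.7% of BM-derived cells with *SOX9* and in 14.8% of those without it. In PB the corresponding shares were 27.0% and 26.4%. For *MKX* in AT, 1 of 94 cells with the gene held *TNC* (1.06%), against 1.11% of the others. The shares for *MKX* differed more in BM and PB but rested on few cells. In BM 0 of 30 cells with *MKX* held *TNC* (Clopper-Pearson upper bound 11.6%), against 14.8% of the others, and in PB 15 of 45 did (33.3%, 20.0006 to 48.95), against 26.3%.

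Other genes of cartilage were mostly at low levels. Of 41 listed cartilage genes 38 were in the matrices and 25 were detected widely enough to be compared. From AT to BM, 6 of the 25 were over 2-fold higher in BM and 1 in AT, beside 6.33% and 2.06% of all genes. From AT to PB, 10 were higher in PB and 2 in AT (4.43% and 3.53% of all genes). Between BM and PB 5 were higher in PB and 3 in BM (1.77% and 4.53% of all genes). The median differences were 0.10, 0.17 and 0.06, beside 0.14, 0.02 and -0.13 over all genes. *COL11A1*, a fibrillar collagen gene of cartilage, had 10.2 CPM in AT, 33.0 CPM in BM and 1.37 CPM in PB. *FGFR3*, a growth factor receptor that restrains chondrocyte proliferation, was higher in BM (10.0 CPM) and PB (3.99 CPM) than in AT (0.225 CPM). The ligand gene *PTHLH* was highest in AT (21.5, 6.73 and 3.03 CPM in AT, BM and PB), whereas its receptor gene *PTH1R* was highest in PB (0.125, 0.746 and 12.5 CPM). *WWP2*, a ubiquitin ligase gene, reached 16.1 CPM in PB, against 3.95 CPM in AT and 6.41 CPM in BM.

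Tendon genes included abundant matrix genes. Of 44 listed genes 43 were in the matrices and 38 were compared. From AT to BM, 11 of the 38 were over 2-fold higher in BM and 6 in AT, where 6.33% and 2.06% of all genes passed. From AT to PB, 12 were higher in PB and 4 in AT, where 4.43% and 3.53% of all genes passed. Between BM and PB 6 were higher in PB and 3 in BM, where 1.77% and 4.53% passed. The median differences were 0.19, 0.28 and 0.11, beside 0.14, 0.02 and -0.13 over all genes. *COL6A3*, a chain of the pericellular collagen VI, showed the same order as *TNC* with 29.7, 214 and 506 CPM in AT, BM and PB. *FMOD*, which encodes the collagen-binding fibromodulin, had 2.28, 27.6 and 7.11 CPM and was highest in BM, as was *SOX9*. *EYA2*, a transcriptional coactivator gene, had 0.225 CPM in AT and 21.6 and 18.2 CPM in BM and PB.

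Of the 5 growth factor genes on the tendon list, *GDF6* and *GDF7* had no UMI in any source. *TGFB1*, named after its values were seen, had 19.7, 34.0 and 73.7 CPM in AT, BM and PB, with a difference of 0.76 from AT to BM that was under the limit. *TGFB3* had 21.2, 49.5 and 115 CPM in AT, BM and PB, and *TGFB2* 0.775, 10.5 and 11.3 CPM. *TPPP3* had 8.43, 33.9 and 24.3 CPM. *IGFBP6* was abundant throughout, with 385, 761 and 449 CPM. The mechanically induced factor *EGR1* had close levels in the sources (37.7, 43.8 and 46.3 CPM), while *EGR2* had 0.475, 0.671 and 4.49 CPM.

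**Figure D3:**
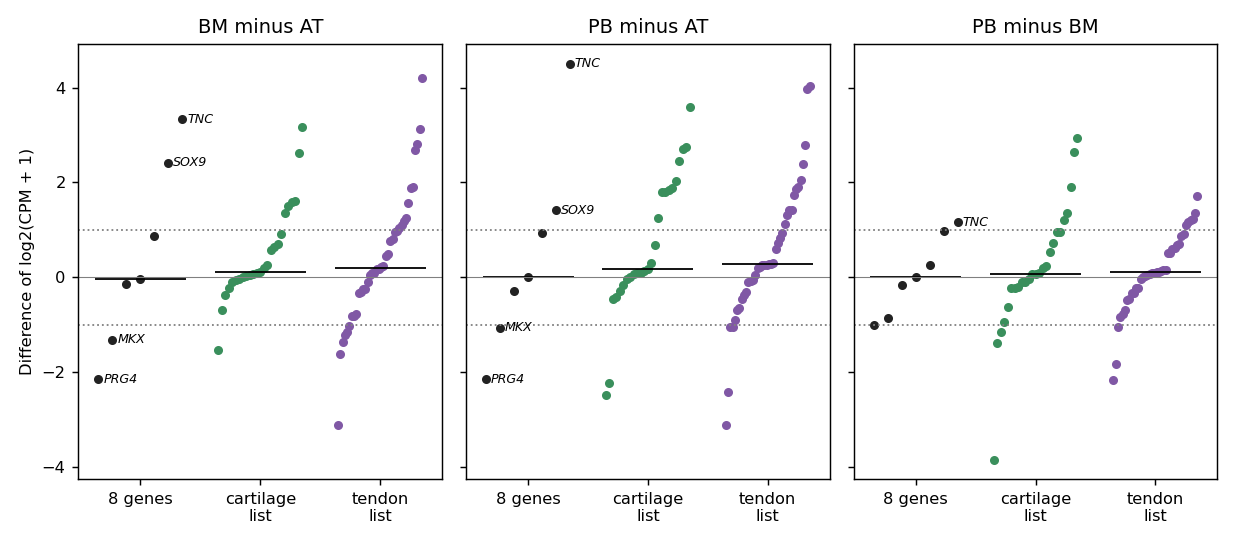
Difference of log2(CPM + 1) between sources for the 7 compared genes of the chosen 8 and for the cartilage and tendon lists; each point is a gene, black lines are medians and dotted lines mark the 2-fold limit. Chosen genes past the limit are named, and the points of both lists spread to either side of 0 in all 3 comparisons.

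Some relatives of the 8 genes had the same order of sources as the gene they resemble and others did not. Of 20 listed relatives 17 were compared. Past 2-fold were 8 between AT and BM, 8 between AT and PB and 4 between BM and PB. The shares over all genes were 8.39%, 7.96% and 6.3%. *SOX4*, of the same family as *SOX9*, had 17.8, 77.7 and 64.4 CPM in AT, BM and PB. *IRX3*, a homeobox relative of *MKX*, had 22.8, 77.3 and 79.6 CPM and was therefore lowest in AT, where *MKX* was highest. *VCAN*, a large proteoglycan gene related to *ACAN*, had 115, 120 and 31.2 CPM. The thrombospondin genes *THBS1* and *THBS2*, relatives of *COMP*, were highest in AT with 520 and 496 CPM, against 386 and 149 CPM in BM and 89.9995 and 107 CPM in PB. *TNN*, which encodes tenascin-N, ran opposite to *TNC* with 26.0, 14.6 and 10.0 CPM.

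Of 13 listed genes for receptors and partners of tenascin-C 11 were in the matrices and 8 were compared. Between AT and BM and between AT and PB 1 of 8 passed 2-fold, higher in AT each time, against 2.06% and 3.53% of all genes in that direction and 8.39% and 7.96% in either. Between BM and PB 2 of 8 passed, 1 higher in PB and 1 in BM, against 6.3% of all genes. *ITGB1*, the common integrin beta chain, had 197, 313 and 204 CPM, *SDC4* 14.1, 22.2 and 15.0 CPM and *ANXA2* 1177, 1852 and 1718 CPM in AT, BM and PB. *FN1*, which encodes fibronectin, had 1103, 545 and 1276 CPM and was lowest in BM.

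Among 14 genes for matrix turnover, 4 passed 2-fold between AT and BM (3 higher in BM, 1 in AT), 6 between AT and PB (3 each way) and 3 between BM and PB (all higher in BM). The shares over all genes were 8.39%, 7.96% and 6.3%. *HAS2*, a hyaluronan synthase gene, was higher in BM (28.6 CPM) and PB (32.0 CPM) than in AT (6.03 CPM). *CD44*, the hyaluronan receptor gene, had 691, 285 and 522 CPM in AT, BM and PB. *ADAMTS1* had 7.68, 13.1 and 4.49 CPM, whereas *ADAMTS2*, *ADAMTS7*, *MMP2* and *HTRA1* stayed within 2-fold in every pair of sources.

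The genes also varied within a source. Clusters were rebuilt for each library with the settings of the methods, giving 8, 8 and 10 clusters in AT, BM and PB. The doublet caller of the methods was not run and the software was newer, so the clusters are not those of the study and their number need not be the same. No cluster was given a cell type. *TNC* ranged from 1.68 to 10.1 CPM over the clusters of AT, from 23.8 to 89.3 CPM in BM and from 75.3 to 182 CPM in PB. Every AT cluster was below every BM and PB cluster, while the ranges of BM and PB overlapped. *MKX* was between 4.34 and 9.41 CPM in AT clusters, at most 3.30 CPM in BM and at most 3.77 CPM in PB. *PRG4* was present in all AT clusters, between 1.33 CPM in cluster 7 and 8.73 CPM (5.71 to 12.8) in cluster 6. This peak depended on the clustering, since the highest AT cluster had 4.74 CPM at resolution 0.4 and 6.89 CPM with the 8 genes left out of the variable genes. Smooth muscle and leukocyte markers summed to 653 and 35.3 CPM in AT cluster 6, against 2460 and 13.8 CPM over AT. Their part in the level of *PRG4* was not tested. These levels describe the clusters, which were built from the same cells.

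*SOX9* and *TNC* were not highest in the same clusters of BM. *SOX9* reached 22.6 CPM (19.5 to 26.0) in cluster 0 and 19.2 CPM in cluster 5, where *TNC* had 44.96 and 41.99 CPM. *TNC* was highest in cluster 2 (89.3 CPM, 82.4 to 96.6), where *SOX9* had 12.1 CPM. Both genes were lowest in cluster 3, with 3.09 CPM (1.86 to 4.83) for *SOX9* and 23.8 CPM (20.1 to 28.0) for *TNC*. Of the 651 cells of cluster 3, 90.2% were called S or G2M. Cluster 4, with 99.3%, had 9.83 CPM of *SOX9* and 78.2 CPM of *TNC*. The part of the cell cycle in these levels was not tested. The osteoblast markers summed to 500 CPM in cluster 0, 237 CPM in cluster 5, 255 CPM in cluster 7 (where *SOX9* had 6.99 CPM) and 14.2 CPM in cluster 3, and their part in the level of *SOX9* was not tested.

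In PB, *SOX9* was highest in cluster 8 of 145 cells (15.6 CPM, 8.92 to 25.3), as was *TNC* (182 CPM, 157 to 210). Osteoblast and smooth muscle markers summed to 701 and 3527 CPM in cluster 8, against 415 and 2339 CPM over PB. Cluster 5 had close sums of both (690 and 3528 CPM), and the part of these markers was not tested. With the 8 genes left out of the variable genes *SOX9* stayed highest in a cluster of 150 cells, but *TNC* was highest in another of 402 cells (183 CPM). *TNC* was lowest in cluster 9 of 40 cells, with 22 UMIs or 75.3 CPM (47.2 to 114). Leukocyte markers summed to 353 CPM there, and their part in this level was not tested. The lowest cluster at resolution 0.4 was one of 377 cells (98.4 CPM, 87.9 to 109.8). Cluster 2 held 20 of the 42 *ACAN* UMIs and 17.5% of the cells, giving 2.57 CPM against 0.650 CPM in the rest. At resolution 0.4 the highest level was in a different cluster, of 377 cells with 7 UMIs (2.15 CPM, 0.866 to 4.44). In AT, cluster 0 held 10 of the 15 *COMP* UMIs and 11 of the 24 *SCX* UMIs with 20.5% of the cells. Smooth muscle markers summed to 6417 CPM in this cluster and 2460 CPM over all kept AT-derived cells, and their part in the level of these genes was not tested.

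**Figure D4:**
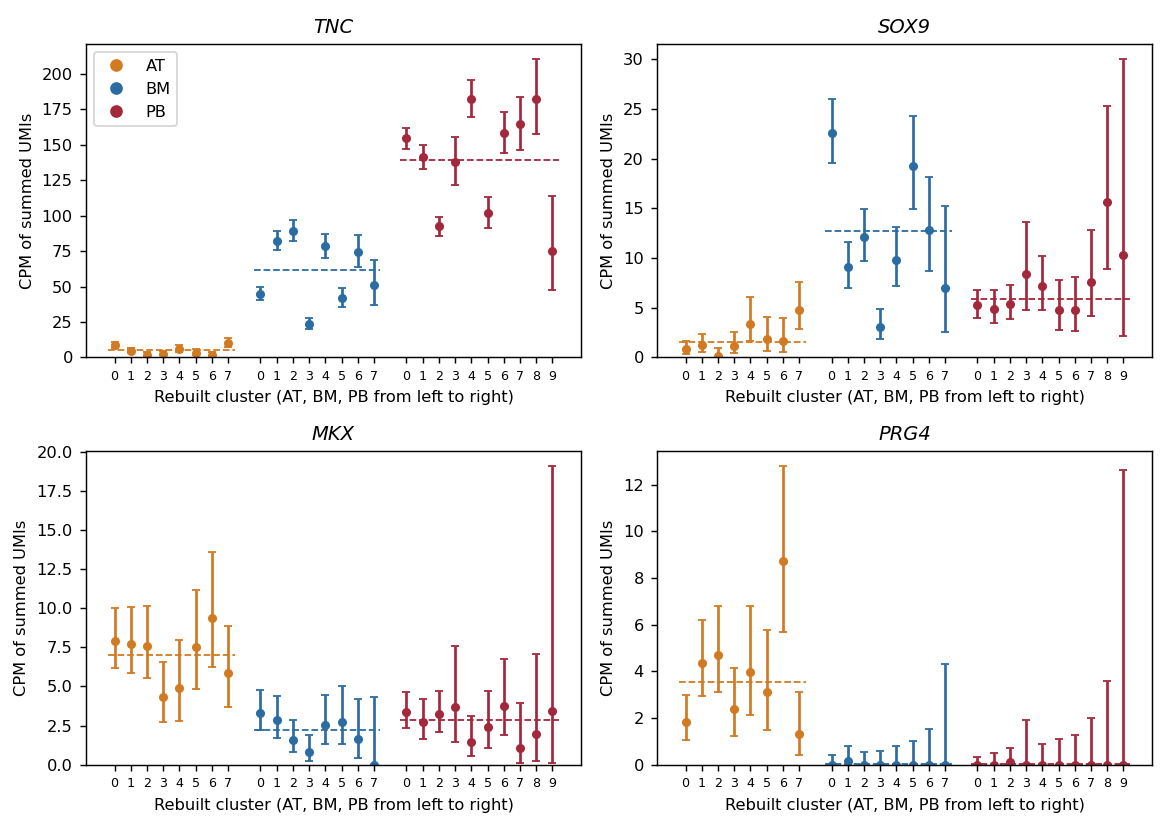
CPM of summed UMIs of *TNC*, *SOX9*, *MKX* and *PRG4* in each rebuilt cluster of AT-, BM- and PB-derived MSCs; bars are 95% Poisson intervals and dashed lines the level over all kept cells of the source. BM cluster 3 is lowest in its source for *TNC* and *SOX9*, and *PRG4* is near 0 outside AT.

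Some levels also differed between cell cycle phases. In BM, *SOX9* had 15.4 CPM in cells called G1, 8.56 CPM in S and 7.71 CPM in G2M. In AT it was lowest in G1, with 0.960 CPM (23 UMIs, 0.609 to 1.44). It had 2.75 CPM in S (25 UMIs, 1.78 to 4.06) and 2.16 CPM in G2M (15 UMIs, 1.21 to 3.57). The interval of G1 in AT lay below that of S but overlapped that of G2M. The intervals of *SOX9* in PB overlapped between phases. They were 5.31 to 7.30 in G1 (6.24 CPM), 4.34 to 7.62 in S (5.81 CPM) and 3.31 to 6.62 in G2M (4.76 CPM). *TNC* in BM had 64.4 CPM in G1 and 50.5 CPM in G2M, whereas in PB it had 134 CPM in G1 and 147 CPM in S and in G2M. Within G1 cells alone, *TNC* was 3.66 and 4.70 higher on the log2(CPM + 1) scale in BM and PB than in AT.

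Genes whose levels followed *TNC* or *SOX9* most closely over the 26 clusters, centred within each source, were sought among 6563 genes. For *TNC* these were *LTBP1* (r = 0.85), *CCBE1* (r = 0.79) and *CCL26* (r = 0.76). Within PB alone their r was 0.66, 0.94 and 0.45, against 0.89, 0.74 and 0.90 in BM and 0.94, 0.92 and 0.85 in AT. For *SOX9* they were *SH3BP4* (r = 0.72), *COL6A3* (r = 0.68) and *SLC25A24* (r = 0.66). Their r was lower in PB (0.39, 0.43 and 0.31) than in BM (0.85, 0.76 and 0.93) and in AT (0.75, 0.72 and 0.58). Clusters of a source share a library, and the values are descriptions.

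Barcodes of the AT library under 2500 UMIs differed from its kept cells. The 5711 of these that were also in the PB library had 648 *TNC* UMIs or 132 CPM (122 to 142), close to the 139 CPM of kept PB-derived cells. The 439 found in neither other library had 3 *TNC* UMIs or 4.95 CPM (1.02 to 14.5), close to the kept AT-derived cells. *MKX* had 3.05 CPM (1.71 to 5.03) in the former and 16.5 CPM (7.92 to 30.4) in the latter. *PRG4* had 4 UMIs or 0.813 CPM (0.222 to 2.08) in the former, above the 0.0240 CPM (0.000608 to 0.134) of kept PB-derived cells and below the kept AT-derived cells. In the 74 kept AT barcodes that the PB library held, *TNC* had 24.8 CPM (12.4 to 44.3).

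**Figure D5:**
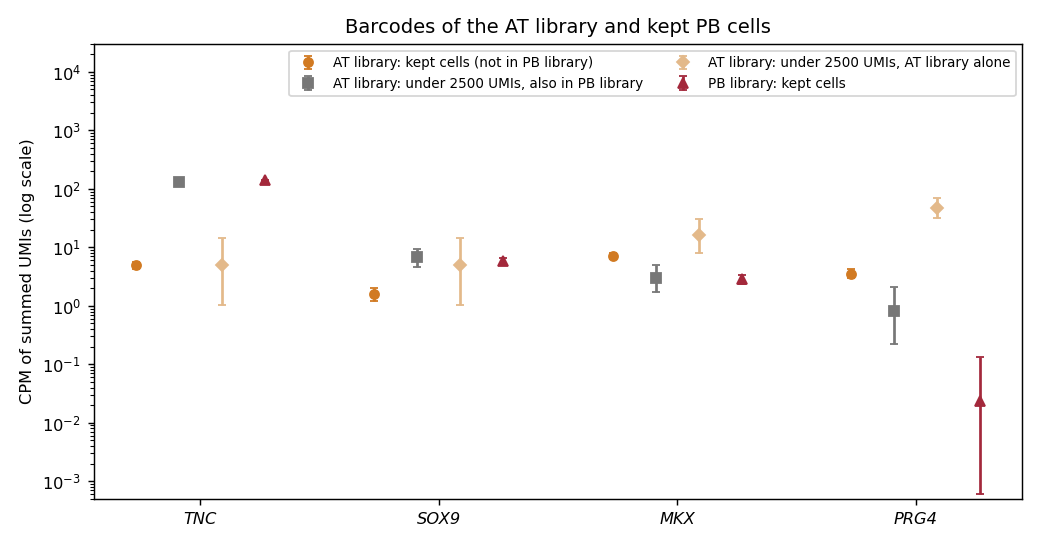
CPM of summed UMIs (log scale) with 95% Poisson intervals in kept AT-derived cells not in the PB library, in AT barcodes under 2500 UMIs that were in the PB library or in the AT library alone, and in kept PB-derived cells. For *TNC* and *MKX*, low-UMI AT barcodes also in the PB library lie near the kept PB-derived cells, whereas for *PRG4* they lie above them (0.813 and 0.0240 CPM).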

How the data were processed

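The scRNA-seq libraries (10x Genomics, version 2 of the 3' kit) comprised MSCs of AT, BM and PB, 1 each. According to the methods, the authors aligned reads to EquCab3.0 with Cell Ranger and counted UMIs per gene with ESAT. The authors deposited raw UMI counts for each gene in each barcode, all whole numbers and not normalized. Barcodes with 2500 to 15000 UMIs and at most 3% on chromosome MT were kept. Doublets were not called, but an upper limit of 12000 UMIs was tried. UMIs were summed over kept cells and scaled to CPM (Python 3.11.15, NumPy 2.4.6, SciPy 1.17.1). Kept totals of 39980656 to 41622445 UMIs place 3 UMIs near 0.0721 to 0.0750 CPM. UMIs of 3' ends are not scaled by length, so genes were compared between sources. R 4.3.3 with sctransform 0.4.2 and Seurat 5.3.0 gave clusters and phases (3000 variable genes, 14, 23 and 20 components, resolution 0.6), and edgeR 4.0.16 gave TMM factors only. Calculation of ratios was tested on simulated data.

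The genes and lists were chosen with earlier results of these data known. Named were the 8 genes, 7 by role, the 3 of each list and pair with the largest difference and at least 10 CPM, relatives, partners and turnover genes with at least 10 CPM, and the 3 genes most alike *SOX9* and *TNC*. Alternatives were other barcode limits, thinning, TMM, totals without MT, a pseudocount of 25 CPM, single-cell means, G1 cells, 2 UMIs for detection, resolution 0.4 and clustering without the 8 genes. No genome of the build used was in hand, and no coordinates or sequences are given.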

Additional observations from a re-analysis of the deposited data

Results flagged for a closer look

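Barcodes under 2500 UMIs, which entered the comparisons between sources only in the alternative with at least 500 UMIs, carried UMIs of the 8 genes whose sum was above the limit of 3 UMIs. This sum was mostly *TNC*, and *TNMD* had none. The summed level was 136 CPM in AT, 96.8 CPM in BM and 181 CPM in PB. In AT this was above the 18.3 CPM of kept cells, and 651 of the 754 UMIs were of *TNC*. The sums in BM and PB were also above those of kept cells (78.6 and 150 CPM). *SOX9* had 6.51 CPM (4.56 to 9.01) in these barcodes of AT, 25.3 CPM (15.0 to 39.9) in BM and 22.4 CPM (12.2 to 37.5) in PB. Its levels in kept cells were 1.58, 12.7 and 5.89 CPM. For *TNC* the intervals in BM (48.4 to 87.7) and PB (124 to 187) held the levels of kept cells. In the 439 AT barcodes found in neither other library, *PRG4* had 29 UMIs or 47.9 CPM (32.1 to 68.8), but they lay in 5 barcodes and 22 of them in 1.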

How the results depend on the processing

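No alternative reversed a direction past the limit. The number of the 8 genes past 2-fold between BM and PB, 1 in the values reported, was 2 with an upper limit of 12000 UMIs, thinned cells, TMM factors, MT left out of totals or single-cell means, 3 with G1 cells or without BM cluster 3, and 0 with a pseudocount of 25 CPM. The share of all genes past the limit was computed only for the values reported and for this pseudocount. The counts under the other settings therefore stand without such a share and are not read further. The pseudocount of 25 CPM left 1 of the genes between AT and BM and 1 between AT and PB. It left 0, 0 and 1 cartilage and 5, 5 and 2 tendon genes for AT and BM, AT and PB, and BM and PB, where 1.26%, 1.09% and 0.772% of all genes then passed, and 2 of the differences of single genes in place of 9. Shares of at least 1% of cells numbered 11 of 24, 6 after thinning and 3 when 2 UMIs were required. The alternatives without AT barcodes of the PB library and without BM cluster 3 were added after seeing the data. Without all barcodes of another library no PB-derived cell was left, so that only AT and BM could be compared. With all barcodes of at least 500 UMIs, *TNC* in AT rose from 5.18 to 17.5 CPM. No paired analysis was possible because each source had 1 library, and none could be left out. At this depth a count of 0, with 3 counts taken as its upper limit, allows up to 0.0750 CPM in AT. Ratios over 1 or 2 UMIs, as for *PRG4* and *ACAN*, have wide counting intervals.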
